A study of Mus musculus with 6 samples.

Results

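The genes described here are 10 genes of cellular zinc handling in mouse macrophages: the metallothioneins Mt1 and Mt2, the zinc-sensing transcription factor Mtf1, the zinc exporters Slc30a1, Slc30a4 and Slc30a5, and the zinc importers Slc39a1, Slc39a6, Slc39a10 and Slc39a14. They were taken by gene symbol from a table of 55487 gene rows, in which each symbol matched 1 row. All 10 passed the filter on low counts that left 14478 genes for testing. Marrow of BALB/c mice (female, wild type, 6 to 12 weeks of age) was grown into macrophages over 8 days with L929 conditioned medium at 20%, a source of macrophage growth factor made by fibroblasts. IL-4 and IL-13, both at 10 ng/mL, were then given for 24 hours as the cytokines of alternative (M2) activation. The NP group of 3 samples next received 200 µg/mL of nanoparticles, poly(lactide-co-glycolide) by the series title, for 24 hours, and the PBS group of 3 samples received the PBS vehicle. The NP samples carry the treatment label PEMA, which the sources used here do not explain, and both groups share the conditioned medium, IL-4 and IL-13. The question behind the comparison is what particle exposure does to gene expression in macrophages polarized in this way.

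Zinc is a structural or catalytic part of many proteins, and cells hold the free ion at a very low level. Metallothioneins are small cysteine-rich proteins that bind zinc and copper, transporters of the Slc30 (ZnT) family move zinc out of the cytosol, and transporters of the Slc39 (ZIP) family move it in. Metal-responsive transcription factor 1, the product of Mtf1, binds DNA when zinc rises and induces metallothionein genes and Slc30a1 through short motifs called metal response elements. In macrophages this system is known for withholding zinc from, or loading it onto, ingested microbes.

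Mt2 and Slc30a1 had the largest increases of the 10 genes. Mt2 was 1.77-fold higher in NP (95% interval 1.57 to 2.00) and Slc30a1, the exporter at the plasma membrane, 1.46-fold higher (1.36 to 1.58). Mtf1 and Mt1 rose by less, 1.22-fold each, and the importers Slc39a6, Slc39a10 and Slc39a1 rose by 1.14-fold or less. Slc30a5, an exporter into the secretory pathway, was the only one of the 10 that fell, to 0.901 of its PBS level. Slc30a4 and Slc39a14 did not pass. In all, 7 of 10 genes rose and 1 fell (limma voom, a linear model of log2 CPM weighted by count precision, with adjusted p under 0.05 over all tested genes), where 41.2% of all tested genes passed in either direction, 19.8% as higher and 21.4% as lower. For 8 of the 10 genes, 7 higher and 1 lower, the groups did not overlap, where the groups of 53.3% of all tested genes did not overlap, 26.5% as higher and 26.8% as lower. The median log2 fold change of the 10 was 0.16, against -0.0035 over all tested genes. Under a stricter filter of 1 CPM in 3 libraries, 8 of the 10 also passed, as did 49.7% of all genes then tested. With plain library totals as the scaling, 6 of the 10 passed, as did 41.0% of all genes. Without a filter on low counts, 7 passed, as did 16.9% of all genes then tested. The count of 8 genes became 6 when PBS 2, NP 1 or NP 3 was left out, and 5 with PBS 1 alone as the control. In that last setting the spread comes from the NP libraries only, and the lone PBS library is assumed to vary like them.

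Depth ran from 41974957 to 69450411 counts per library, with every NP library deeper than every PBS library. Whether the samples of a group were separate cultures or animals is not in the labels. The p-values therefore measure only how far these samples spread, and that spread may be technical. Olfactory and vomeronasal receptor genes summed to 136 and 150.4 CPM in PBS 2 and PBS 3 and to 9.62 to 12.4 CPM elsewhere; CPM are counts scaled to the library total. Macrophage markers were all detected. Of 7, 5 were lower and 1 higher in NP, and their sum was 11702 to 12090 CPM in PBS and 9227 to 10313 CPM in NP. Of 4 alternative activation markers 2 fell, with a summed level of 1552 to 1755 CPM in PBS and 745 to 875 CPM in NP. In bulk RNA, fewer cells of a type and less RNA per cell cannot be told apart. Markers of 6 other cell types summed to at most 3.65 CPM per type in any library. Of 5 neutrophil markers 2 were tested and S100a8 rose (sums of 0.587 to 0.835 CPM in PBS and 0.884 to 1.11 in NP), of 4 fibroblast markers 2 were tested and Pdgfra rose (0.313 to 0.762 and 0.610 to 0.753), and of 4 dendritic cell markers 3 were tested and Ccr7 rose (1.64 to 3.65 and 2.59 to 3.08). Pdgfra and Ccr7 reached the level for testing only through their NP libraries, so a rise was the only change their test could show. None of the lymphocyte (0.0711 to 1.52 and 0.0288 to 0.0819), mast cell (0) or erythroid (at most 0.0196) markers reached the level for testing. Ly6g, Cpa3, Mcpt4 and Hbb-bs were at 0 counts in all 6 libraries. The part of these markers in the results below was not tested.

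The promoters of Mt1, Mt2 and Slc30a1 are shown because these genes are known to be induced through metal response elements and were among the 4 largest increases. The sequences come from RefSeq (GRCm38.p6, plus strand), not from the BALB/c samples, and stop before the earliest transcript start that RefSeq or GENCODE M21 gives in the window. The capitals mark matches to the core of the metal response element, searched as TGCACNC and TGCGCNC on both strands, where N is any base.
Mt1, chr8:94178839-94179081: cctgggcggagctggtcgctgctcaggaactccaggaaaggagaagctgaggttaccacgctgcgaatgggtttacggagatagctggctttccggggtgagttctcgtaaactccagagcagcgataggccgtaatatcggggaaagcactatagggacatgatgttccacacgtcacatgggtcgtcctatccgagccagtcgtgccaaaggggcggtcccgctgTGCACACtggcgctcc
Mt2, chr8:94172368-94172617: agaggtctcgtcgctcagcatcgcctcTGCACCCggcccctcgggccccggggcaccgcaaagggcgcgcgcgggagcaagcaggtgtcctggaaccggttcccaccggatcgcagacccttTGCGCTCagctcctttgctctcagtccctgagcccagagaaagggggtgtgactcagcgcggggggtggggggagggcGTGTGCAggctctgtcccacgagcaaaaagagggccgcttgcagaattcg
Slc30a1, chr1:191906531-191906766: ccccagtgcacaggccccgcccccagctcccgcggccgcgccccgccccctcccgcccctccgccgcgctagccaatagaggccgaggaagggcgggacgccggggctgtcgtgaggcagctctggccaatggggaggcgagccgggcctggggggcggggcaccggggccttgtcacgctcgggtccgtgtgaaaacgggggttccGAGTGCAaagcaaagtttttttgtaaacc

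In the 250 bases before the RefSeq start, Mt2 held 3 matches, at 223, 128 and 50 bases before the start. Mt1 and Slc30a1 held 1 match each, 23 and 43 bases before their starts. Among all 32851 promoter windows of this length, 21.4% held at least 1 match and 1.26% held at least 3. In Mt1, 2 further matches lay just after the RefSeq start, beginning at its bases 3 and 21, and are shown to place them.
Mt1, chr8:94179091-94179115: TGCACTCcgcccgaaaagTGCGCTC
With the first 50 bases after the start included, Mt1 held 3 matches, Mt2 4 and Slc30a1 2. Slc30a4, which did not pass, also held 3 with these bases included, as many as Mt1 and more than Slc30a1. Slc30a5, which fell, held 1, and Mtf1, Slc39a1 and each start of Slc39a10, all genes that rose, held 0. Of all windows extended in this way, 7.11% held at least 2, 1.97% at least 3 and 0.517% at least 4. Counts before the start depend on the start used. From a later start of Mt1, its 2 matches after the RefSeq start could lie before it. The core of the antioxidant response element, TGACNNNGC on either strand, had 1 match each in the 250 bases before Mt2, Slc30a1 and Slc39a1. Of all windows of that length, 10.2% held it. Bases after the start were not searched for this core. None of its matches overlapped a metal response element match.

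The promoter table had entries for 8 of the 10 genes, with 2 starts for Slc39a10. Slc39a6 and Slc39a14 had no entry. Slc30a4, which did not pass, held 2 metal response element matches before its start, and Slc30a5, which fell, held 1. Mtf1, Slc39a1 and both starts of Slc39a10 held 0, and all 3 of these genes rose. A match is a run of letters and not a measured binding site.

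**Figure D1:**
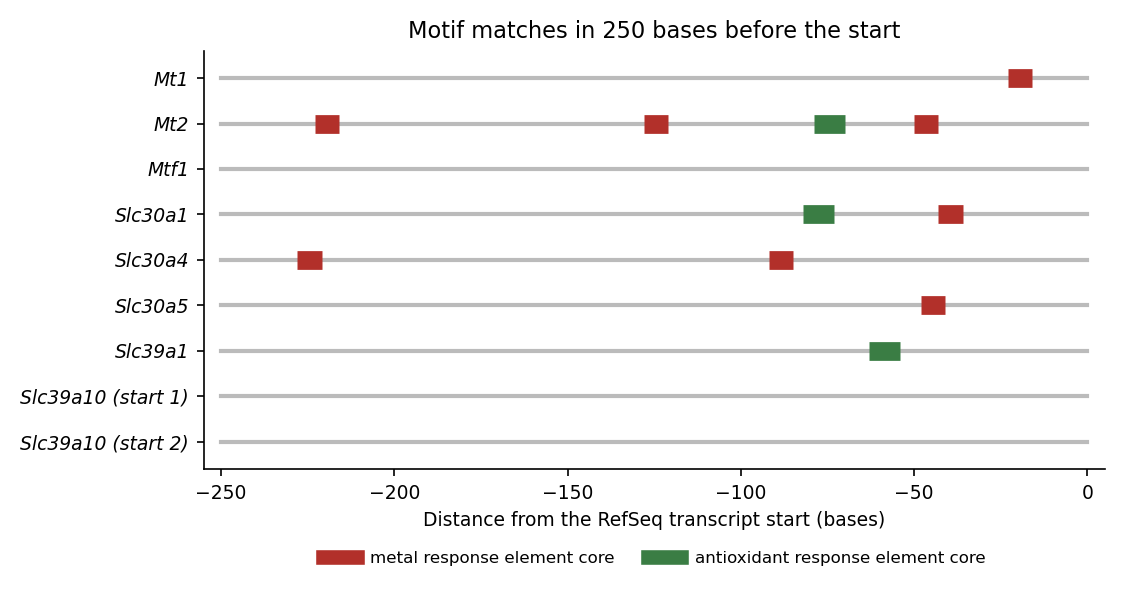
Motif matches in the 250 bases before each RefSeq start (x axis, bases from the start), 1 line per start, for the 8 genes with an entry. Red blocks are metal response element cores and green blocks antioxidant response element cores; Mt2 has 3 red blocks, and Mtf1, Slc39a1 and Slc39a10 have none.

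Mt1 and Mt2 encode the metallothioneins that most tissues express, and lie side by side on chromosome 8, with Mt2 at 94172664 to 94173568 and Mt1 at 94179082 to 94180327 on the plus strand (GRCm38, GENCODE M21). RefSeq starts Mt2 slightly earlier, at 94172618, and Mt1 slightly later, at 94179089. Mt2 stood at 26.2, 31.4 and 27.8 CPM in PBS 1 to 3. It reached 55.0, 46.5 and 48.4 CPM in NP 1 to 3. The lowest NP library lay above the highest PBS library, and the log2 fold change was 0.82 (SE 0.078, limma voom adjusted p = 6.3e-05). Of all tested genes, 2.29% had a higher log2 fold change.

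Mt1 stood at 82.4, 89.9 and 94.1 CPM in PBS 1 to 3. It stood at 108, 105 and 112 CPM in NP 1 to 3. The groups did not overlap, but the gap between them was narrower than the range within PBS. The mean went from 88.8 ± 5.94 to 108 ± 3.80 CPM (SD, n = 3 each), a log2 fold change of 0.29 (SE 0.050, limma voom adjusted p = 0.0016). Of all tested genes, 11.9% had a higher log2 fold change. The calls for both metallothioneins held under every one of the 15 other settings, with log2 fold changes of 0.25 to 0.39 for Mt1 and 0.76 to 0.94 for Mt2.

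The balance between the 2 metallothioneins shifted toward Mt2. Counts of Mt1 were 3.15, 2.86 and 3.38 times those of Mt2 in PBS 1 to 3. They were 1.96, 2.25 and 2.32 times those of Mt2 in NP 1 to 3. The ratio was thus lower in 3 of 3 NP libraries than in any PBS library, with means of 3.13 ± 0.260 and 2.18 ± 0.187 (SD, n = 3 each). An exact two-sided permutation test gave p = 0.1, the smallest value that 3 samples against 3 can give. Summed, both genes held 117 ± 7.55 CPM in PBS and 158 ± 6.27 CPM in NP, a 1.35-fold difference with the same exact p = 0.1.

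The other metallothioneins lie in the same cluster of 43.1 kb. Mt3, best known from brain, was near the detection limit, with 24, 8 and 14 counts in PBS 1 to 3 and 82, 66 and 61 counts in NP 1 to 3. Every NP library was above every PBS library, and Mt3 rose (log2 fold change 1.91, SE 0.28, limma voom adjusted p = 5.9e-04). Its summed counts, scaled to depth, were 3.55-fold higher in NP, with an exact 95% interval of 2.57 to 4.995 for counting error only. Mt4 had 0 counts in all libraries, which allows up to 0.0432 to 0.0715 CPM, the worth of 3 counts. Inside the cluster or within 150 kb on either side of it, 8 other genes were tested. Of these 0 rose and 2 fell, where 19.8% of all tested genes rose and 21.4% fell. The 2 that fell, named after their values were seen, were Nudt21, an mRNA 3' processing factor (log2 fold change -0.27), and Nup93, a nuclear pore protein (-0.18). Also among the 8, Gm45774 lies inside the cluster, on the strand opposite Mt2. It held 141 counts over the 6 libraries, and its groups overlapped. Gm45774 did not pass (log2 fold change 0.83, limma voom adjusted p = 0.073). Rpl10-ps5 and C78859, also named after their values were seen, held only 68 and 47 counts.

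Mtf1, which encodes the zinc sensor itself, lies on chromosome 4 at 124802104 to 124849800. It stood at 30.6, 29.6 and 30.9 CPM in PBS 1 to 3 and at 38.2, 36.1 and 37.3 CPM in NP 1 to 3. All NP libraries lay above all PBS libraries, with little spread within either group. The log2 fold change was 0.29 (SE 0.039, limma voom adjusted p = 4.0e-04), and the call held under all 15 other settings. Mtf1 shares 721 exonic bases with 1110065P20Rik, a protein-coding gene on the opposite strand with 3974 counts over the 6 libraries, against 4588 for Mtf1 in PBS and 7030 in NP. Whether the counting used strand is a detail not given in the sources used here. Without it, reads from the shared bases cannot be told apart.

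Slc30a1 encodes ZnT1, which carries zinc out of the cell, and lies on chromosome 1 at 191906767 to 191913247. It stood at 55.9, 58.7 and 62.4 CPM in PBS 1 to 3. It reached 89.5, 82.4 and 86.9 CPM in NP 1 to 3. The groups were well apart, with a log2 fold change of 0.55 (SE 0.048, limma voom adjusted p = 4.2e-05) that stayed between 0.52 and 0.62 under the other settings. Slc30a1 and Mt2 also overlap antisense genes, 1700034H15Rik and Gm45774. The shared exonic bases are 468 of the 5244 of Slc30a1 and 432 of the 588 of Mt2. These antisense genes held 205 and 141 counts over the 6 libraries, against 8889 for Slc30a1 and 4257 for Mt2 in PBS alone. As for Mtf1, reads from the shared bases cannot be told apart if the counting did not use strand.

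Slc30a5 encodes ZnT5, which with ZnT6 supplies zinc to enzymes of the secretory pathway, and lies on chromosome 13 at 100802648 to 100833427. It stood at 123, 123 and 126 CPM in PBS 1 to 3 and at 114, 111 and 110.1 CPM in NP 1 to 3. All NP libraries lay below all PBS libraries, and the mean fell by 9.89% (log2 fold change -0.15, SE 0.030, limma voom adjusted p = 0.0036). The call was lost with PBS 1 alone as the control, where the log2 fold change was also -0.15 (adjusted p = 0.067). Slc30a4, which encodes ZnT4, an exporter into endosomes and lysosomes, stood at 19.1, 17.8 and 19.9 CPM in PBS and at 20.7, 17.8 and 18.1 CPM in NP. The groups overlapped almost fully (log2 fold change -0.0040, limma voom adjusted p = 0.97), and the 95% interval of its fold ran from 0.895 to 1.11.

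**Figure D2:**
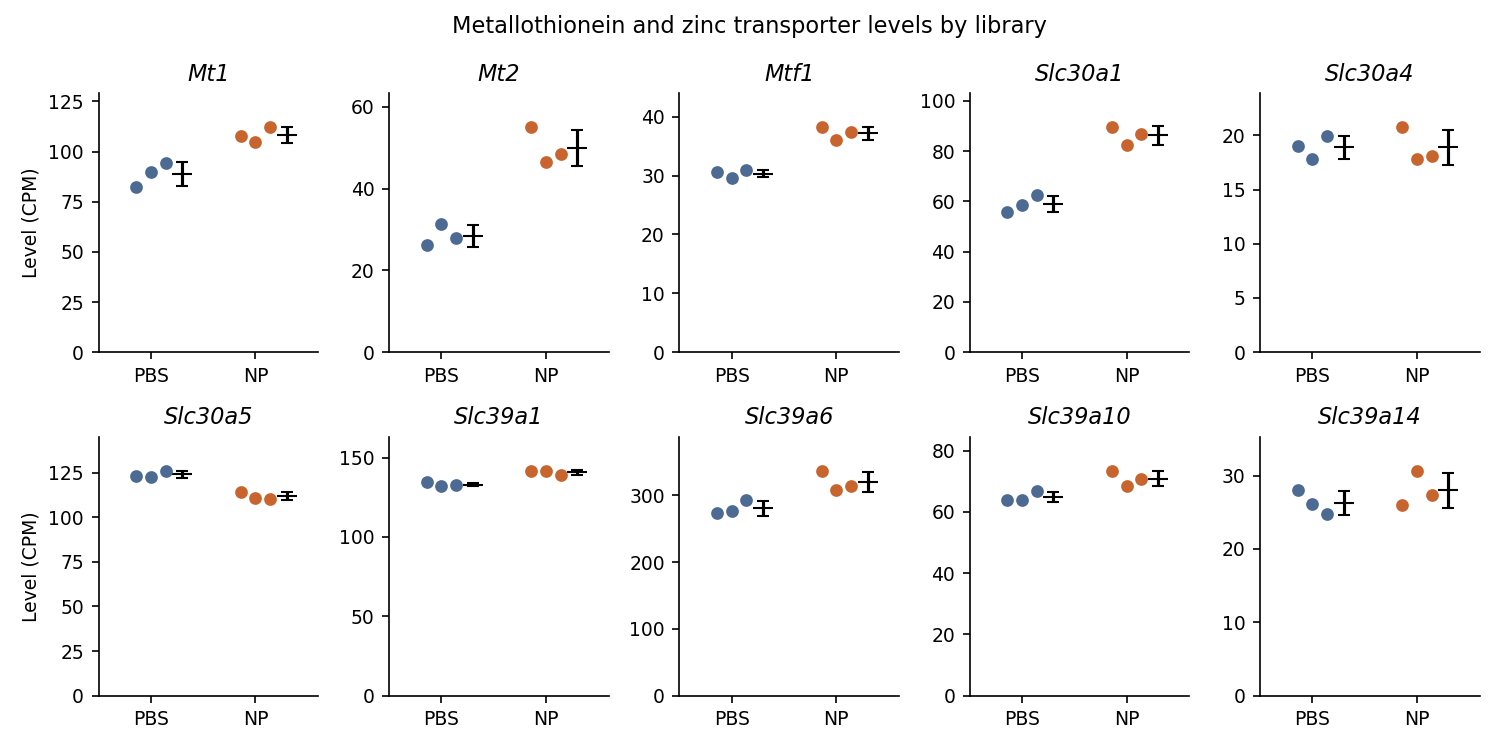
Levels of the 10 genes (y axis, CPM, from 0) in each PBS and NP library; each point is 1 library, and the bar beside it is the mean ± SD of 3. Mt2 and Slc30a1 show the widest gap between groups, Slc30a5 is the only gene whose NP points all lie below PBS, and the points of Slc30a4 and Slc39a14 overlap.

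Among the importers, Slc39a6 encodes ZIP6, a transporter of the plasma membrane, and had the highest CPM of the 10 genes before correction for length. It stood at 273, 276 and 293 CPM in PBS 1 to 3 and at 337, 308 and 315 CPM in NP 1 to 3. The groups did not overlap, and the log2 fold change was 0.19 (SE 0.043, limma voom adjusted p = 0.0067), a call that held under all 15 other settings. Slc39a6 overlaps no exon of another gene in GENCODE M21.

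Slc39a10 encodes ZIP10, a plasma membrane importer whose gene is known to be repressed by zinc through the product of Mtf1. It stood at 63.9, 64.0 and 66.7 CPM in PBS and at 73.4, 68.5 and 70.6 CPM in NP. The groups did not overlap, but the gap was small (log2 fold change 0.13, SE 0.037, limma voom adjusted p = 0.021). The call was lost when PBS 2, NP 1 or NP 3 was left out (limma voom adjusted p = 0.072, 0.051 and 0.065), with PBS 1 alone as the control (0.12), and with plain library totals as the scaling (0.057).

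Slc39a1 encodes ZIP1, a broadly expressed importer. It stood at 134, 132 and 133 CPM in PBS and at 142, 141 and 139 CPM in NP. The groups did not overlap, and the mean differed by 5.80% (log2 fold change 0.081, SE 0.028, limma voom adjusted p = 0.044). This was the least stable of the 8 calls, lost under 9 of 15 other settings (adjusted p up to 0.38), among them plain library totals (0.19) and leaving out PBS 2, PBS 3, NP 1 or NP 3 (0.12, 0.095, 0.052 and 0.060). A pseudogene copy, Slc39a1-ps, has its own row in the table, and reads shared with it are divided by estimate. Slc39a14 encodes ZIP14, which also carries iron and manganese. It stood at 28.0, 26.1 and 24.8 CPM in PBS and at 26.03, 30.7 and 27.3 CPM in NP. The groups overlapped (log2 fold change 0.082, SE 0.069, limma voom adjusted p = 0.37), and the 95% interval of its fold ran from 0.951 to 1.18.

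Levels of different genes were compared per kilobase of exon, as CPM divided by the summed exon length in GENCODE M21. In PBS, Mt1 (71.3 ± 4.77 CPM per kb) and Slc39a6 (68.9 ± 2.72) stood highest and overlapped each other. Slc39a1 (56.3 ± 0.505) and Mt2 (48.4 ± 4.55) followed, each below its neighbour in every library. Slc30a5 (17.0 ± 0.250) was next, ahead of Slc30a1 (11.3 ± 0.627) and Slc39a10 (10.6 ± 0.259), which overlapped. The lowest were Slc30a4 (3.45 ± 0.194) and Mtf1 (3.41 ± 0.0761), which overlapped, and Slc39a14 (2.49 ± 0.154).

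In NP the order changed at 3 places. Mt2 (85.0 ± 7.56 CPM per kb) now overlapped Mt1 (86.9 ± 3.05) and Slc39a6 (78.5 ± 3.70) and lay above Slc39a1 (59.5 ± 0.598). Slc30a1 (16.4 ± 0.690) lay above Slc30a5 (15.3 ± 0.303) in every library. Mtf1 (4.18 ± 0.121) lay above Slc30a4 (3.45 ± 0.294). The exon length sums all transcript models of a gene, so a gene that uses a short model is placed too low on this scale. For Mt1 the sum is 1246 bases, the whole span of the gene, against 588 bases for Mt2. Mt1 may therefore stand higher than shown, and its overlaps with Slc39a6 and Mt2 depend on this length.

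**Figure D3:**
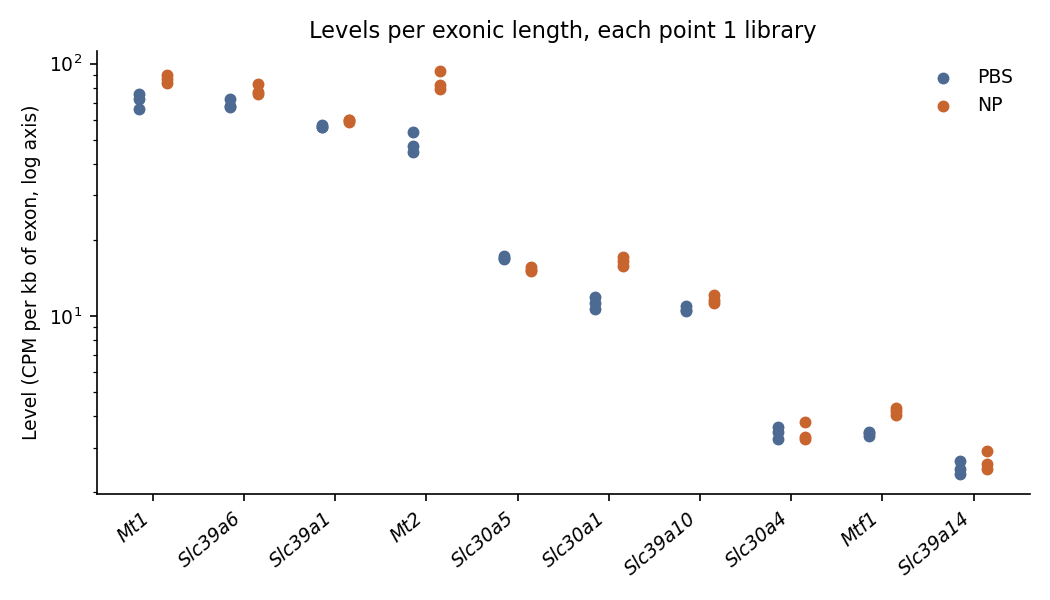
Levels per exonic length (y axis, CPM per kb of exon, log axis) of the 10 genes, ordered by their PBS mean; each point is 1 library. Mt2 moves from below Slc39a1 in PBS to above it in NP, and Slc30a1 from below Slc30a5 to above it.

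The rest of the zinc system was described from lists that hold every other gene of the families. Of 24 further genes, 17 were tested, of which 6 rose and 2 fell, a share of 47.1% against 41.2% of all tested genes. None of the 3 other exporters tested passed: Slc30a6, the partner of ZnT5, had a log2 fold change of 0.16 (limma voom adjusted p = 0.053), Slc30a9 of 0.081 and Slc30a7 of 0.0030. Slc30a2, Slc30a3, Slc30a8 and Slc30a10 had 0 counts in all libraries, as had Slc39a5 among the importers.

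Of 9 other importers tested, 3 rose and 1 fell. Slc39a7 encodes ZIP7, the transporter that releases zinc from the endoplasmic reticulum. It rose from 264 ± 7.94 to 324 ± 18.4 CPM (log2 fold change 0.30, SE 0.044, limma voom adjusted p = 6.5e-04). Slc39a2 rose at a low level, from 1.22 ± 0.0721 to 1.83 ± 0.120 CPM (0.58). Slc39a12 fell at a still lower level, from 45, 32 and 47 counts in PBS 1 to 3 to 26, 22 and 20 counts in NP 1 to 3 (-1.17). Slc39a11, named after its values were seen, also rose (0.16). The median of this list was 0.045 and its mean -0.056, which differ in sign; Slc39a12 and Slc39a4 (-0.54, limma voom adjusted p = 0.23, named after its values were seen) were the 2 genes below 0. Taking each family whole, 6 of 13 tested Slc39 genes rose and 1 fell, and 1 of 6 tested Slc30 genes rose and 1 fell; the difference between the families was not tested.

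**Figure D4:**
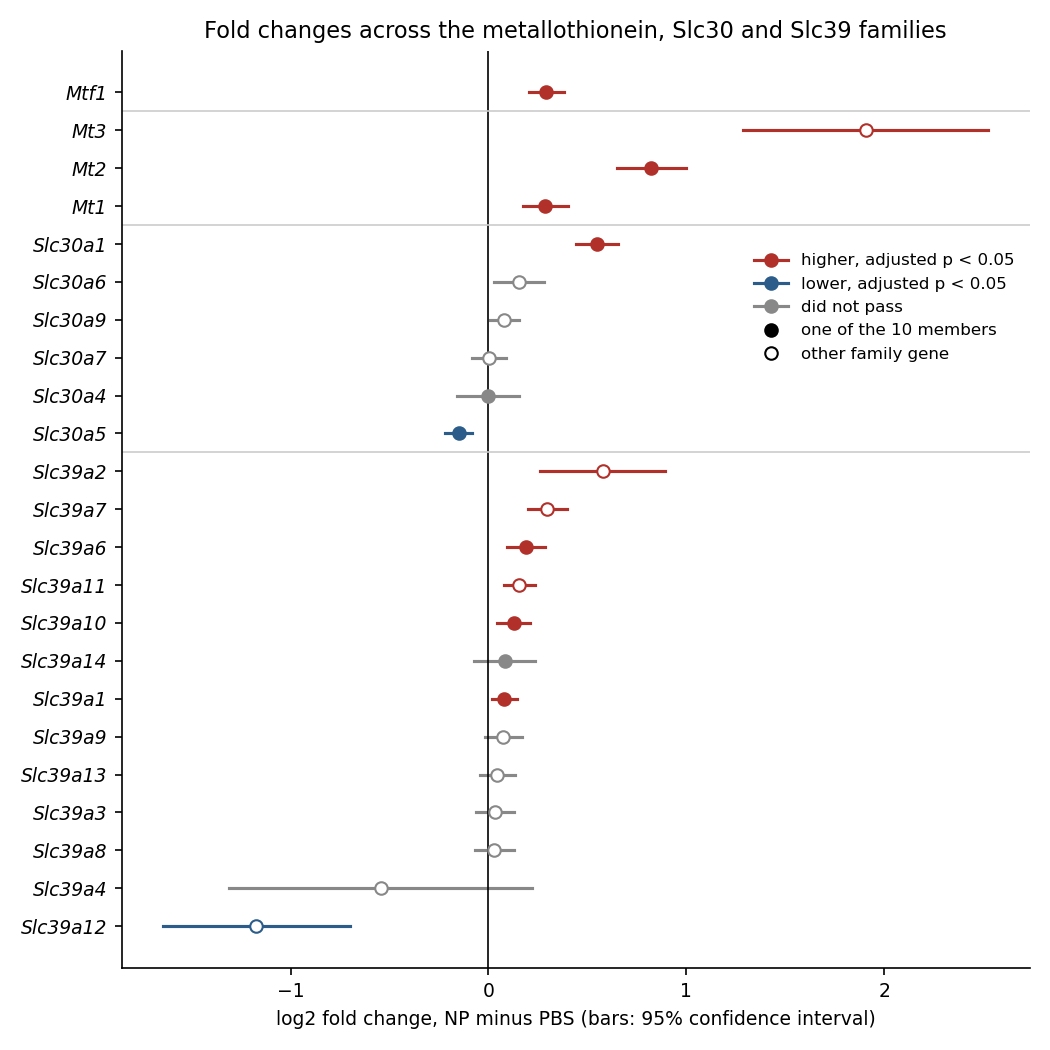
Log2 fold changes, NP minus PBS (x axis), of all tested metallothionein, Slc30 and Slc39 genes and Mtf1, with 95% confidence intervals. Filled points are the 10 genes and open points the other family genes; the 3 tested metallothioneins all lie to the right of 0, while most Slc30 and Slc39 genes lie within 0.3 of it.

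Among other genes of zinc handling, Cbwd1, a zinc chaperone GTPase, rose (log2 fold change 0.23), as did Mcoln1, the lysosomal cation channel TRPML1 (0.14). Trpm7, a divalent cation channel, fell (-0.099). The call for Trpm7 was lost under 8 of 15 other settings, among them leaving out PBS 1, PBS 2, NP 2 or NP 3 (limma voom adjusted p = 0.13, 0.081, 0.12 and 0.18). That for Mcoln1 was lost without PBS 3 or NP 3 (0.057 and 0.066) and with plain library totals (0.052), and that for Cbwd1 without PBS 2 (0.056). Tmem163 did not pass and Gpr39, the zinc receptor, had 2 counts in all.

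Genes outside these families that have been described as targets of the Mtf1 product or as metal-induced were read next. Of 8 tested, 2 rose and 2 fell, near the shares of all tested genes (19.8% higher and 21.4% lower), with a median log2 fold change of 0.011. Hmox1, the heme-degrading enzyme that metals and oxidants induce, rose (0.89, SE 0.057), and so did Ndrg1, a stress-response gene (0.40). Hspa1b, an inducible heat shock protein, fell (-1.01), but it has a near-identical copy, Hspa1a (-0.12, limma voom adjusted p = 0.22), and reads shared between them are divided by estimate. Csrp1, named after its values were seen, fell (-0.40), and Gclc, Selenow and Pgf did not pass.

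Copper is the other metal that metallothioneins bind. Of 12 tested copper-handling genes 6 rose and 2 fell, where 19.8% of all tested genes rose and 21.4% fell, with a median log2 fold change of 0.076 against -0.0035 over all tested genes. Steap3, a metalloreductase, rose by 0.30, and Sco2 and Cox11, which supply copper to cytochrome c oxidase, by 0.23 each. The 2 that fell, named after their values were seen, were Sod1, the copper-zinc superoxide dismutase (-0.20), and Slc31a2, a copper transporter of endosomes (-0.12). The calls for Sco2 and Slc31a2 were lost under 8 of 15 other settings each, among them leaving out PBS 1, PBS 3, NP 1 or NP 3 (limma voom adjusted p = 0.081, 0.077, 0.057 and 0.083 for Sco2, and 0.065, 0.088, 0.072 and 0.075 for Slc31a2). Without NP 2, Slc31a2 had an adjusted p of 0.057, and without NP 3, Sod1 had one of 0.059.

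Glucocorticoids also induce metallothioneins, so 8 glucocorticoid-induced genes were read beside them. Of 7 tested, 2 rose and 2 fell, where 19.8% of all tested genes rose and 21.4% fell. Sgk1, a kinase, rose (0.84, SE 0.11), Klf9, named after its values were seen, rose by 0.21, and Cd163, the hemoglobin scavenger receptor, and Fkbp5, a receptor chaperone, fell (-1.37 and -0.25). The call for Klf9 was lost without PBS 2 or NP 3 (limma voom adjusted p = 0.051 and 0.060). Tsc22d3, Per1 and Ddit4 did not pass. The median of the list was 0.086 and its mean -0.068, which differ in sign.

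The 5 genes whose centred log2 CPM over the 6 libraries lay closest to that of Mt1, among 9927 genes with a mean of at least 5 CPM, were Gcc1, Il3ra, Leng1, Nat10 and Mcu. Their root mean square distances were 0.029 to 0.037 on the log2 scale, and their Pearson correlations with Mt1 0.97 to 0.99. Mt2 ranked 8383rd by distance, at 0.28, and its correlation with Mt1 was 0.92. The distance is not scaled, so this rank largely reflects the sizes of the log2 fold changes, 0.82 for Mt2 and 0.29 for Mt1. These values describe 6 libraries that differ by group, where many genes share a step between groups.

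**Figure D5:**
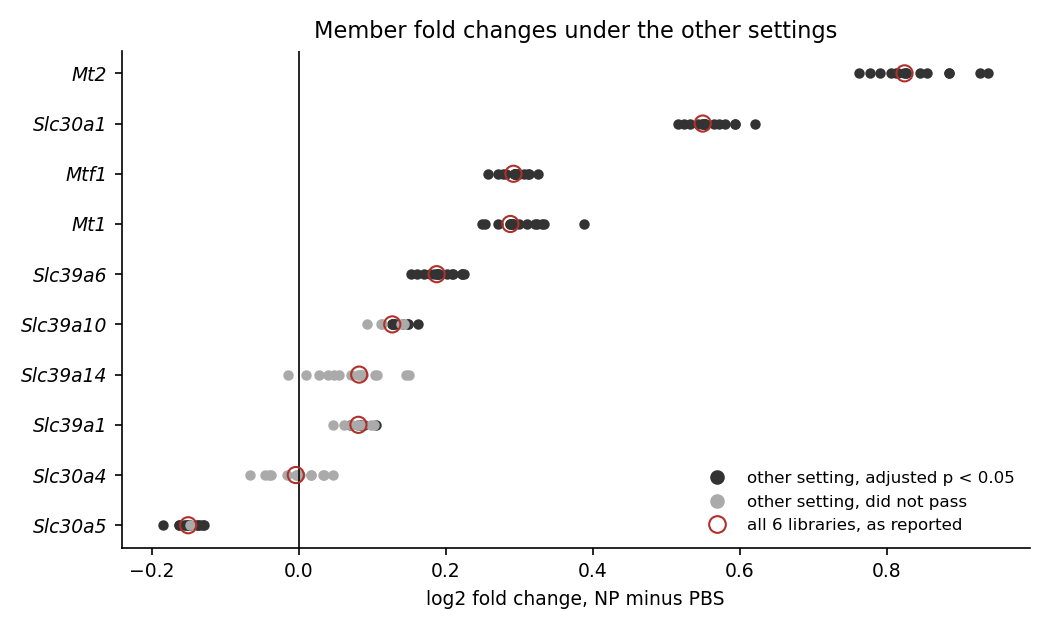
Log2 fold changes, NP minus PBS (x axis), of the 10 genes with all 6 libraries (red rings) and under 15 other settings (black points passed adjusted p under 0.05, grey points did not). Mt2, Slc30a1, Mtf1, Mt1 and Slc39a6 stay to the right of 0 and passed throughout, while Slc39a10 and Slc39a1 mix black and grey.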

How the data were processed

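Polyadenylated RNA of 6 samples was sequenced as pairs of 151 bp, per the labels' protocols. The authors deposited whole-number expected counts per gene, with no scaling for depth. Per the submitters' processing notes, STAR 2.7.8a and RSEM 1.3.3 were used beside cutadapt 2.3, MultiQC 1.7 and FastQC 0.11.8, and the build was GRCm38. The annotation release was a detail not given in the sources used here. The layout of the table kept its unit from being checked automatically, so it was read separately, and count models were not run. Of 55491 rows, 4 reporter constructs with 0 counts were left out. Genes with at least 0.171 CPM (10 counts at median depth) in 3 libraries and 15 counts in total were tested with limma 3.58.1 voom in R 4.3.3, with trimmed-mean (TMM) factors of 0.979 to 1.02, on group alone (4 residual degrees of freedom), with Benjamini-Hochberg adjusted p under 0.05. CPM used tested counts scaled by these factors; marker and receptor sums used library totals. The fit was tested on simulated data. The 10 genes and all lists were chosen with earlier results of these data known. Outside the 10, up to 3 passing genes per list were named, by size of change. Replicates of a group differed by more than sampling noise (chi-square per gene 5.56 to 18.1). Alternatives were other scaling, filters, limma-trend, sample weights, a replicate block and left-out libraries. Promoters came from RefSeq GRCm38.p6; coordinates and lengths from GENCODE M21, which matched 55141 of 55487 genes.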

Additional observations from a re-analysis of the deposited data

How the results depend on the processing

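Of 150 member values under 15 other settings, 128 kept their direction and their side of the threshold, 15 no longer passed and 7 changed sign, all 7 in Slc30a4 or Slc39a14, which never passed. The log2 fold change of Slc30a4 was 0.017 without the low-count filter and 0.0013 with the replicate block, and ran from -0.067 to 0.047 when libraries were left out in turn. That of Slc39a14 was -0.014 with PBS 1 alone as the control. In that setting, where the NP libraries alone give the spread, 5 members, 2972 of all genes and 3 of the other zinc genes passed, against 8, 5964 and 8. Leaving out each library in turn gave 6 to 8 members. Deviations of same-numbered libraries from their group means correlated at -0.083, -0.19 and -0.18, and those of the other pairs at -0.091 to 0.25. With 3 libraries per group, the deviations within a group cancel, and a small shared effect could be hidden by noise. The check therefore cannot decide whether the numbers pair the samples. With the replicate block 7 members passed (without Slc39a1, adjusted p = 0.12). Where PBS 2 and NP 2, whose library names carry the numbers 13 and 12 against 4 to 8, were left out, 7 members passed. The summed Mt1 and Mt2 level was 40.9 CPM higher in NP, and 36.6 to 44.5 CPM under its 7 alternatives. With PBS 1 alone, the calls for Slc39a2, Slc39a11, Cox11 and Fkbp5 were also lost (adjusted p = 0.083, 0.079, 0.12 and 0.056), under that setting only. Mt3, Slc39a4 and Slc39a12 rest on few counts.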
